A study of Arabidopsis thaliana with 48 samples.

Results

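The 10 genes described here are SPL2, SPL3, SPL4, SPL5, SPL9, SPL10, SPL11, SPL13A, SPL13B and SPL15 of Arabidopsis thaliana, members of the SQUAMOSA PROMOTER BINDING PROTEIN-LIKE (SPL) family. They were chosen by name, as genes that time the change from juvenile to adult growth, and the table of transcript levels lists 20 transcripts for them among 42818 transcripts of 33553 genes. RNA was sequenced from whole seedlings of the Col-0 ecotype at 12 days, either wild type (WT) or carrying acc1-5, an allele of the gene for the cytosolic acetyl-CoA carboxylase, with 3 libraries for each genotype. The plates had 16 h of light and 8 h of dark. The labels repeat a spray treatment with solvent or estradiol for all samples and do not say whether seedlings used for RNA received it, and acc1-5 is the only mutant allele with RNA libraries. The other 42 of the 48 libraries are chromatin immunoprecipitation or input libraries and were not analysed here. Levels are FPKM, fragments counted per transcript and scaled to its length and to the mapped fragments, so they can be compared between genes. Each genotype has 1 FPKM value per transcript with the authors' lower and upper confidence bounds, printed below in brackets, and no value for a single library. The spread between libraries therefore enters only through these bounds and through the authors' own test.

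SPL proteins are transcription factors with a conserved DNA-binding domain, the SBP box. In young plants the microRNA miR156 holds most of them down, and as the plant ages miR156 declines and SPL transcripts accumulate. SPL factors then promote adult leaf traits, activate genes for miR172, and promote flowering through MADS-box genes and LEAFY. Their levels are therefore read here as a guide to developmental stage, which is the question the comparison of both genotypes addresses.

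All 8 SPL genes with a tested transcript had a lower level in acc1-5 than in WT, and 3 of them, SPL3, SPL9 and SPL15, passed the authors' test. A gene is represented by its main transcript, the one with the highest mean FPKM over both genotypes, and is called changed where the authors' q-value is under 0.05. The 3 of 8 called lower, with 0 called higher, stand against 9.04% of all 20509 tested genes called lower and 10.9% called higher. The 5 others missed that threshold, and their p-values in the authors' deposited table ran from 0.01145 for SPL4 to 0.180 for SPL10. The median log2 fold change of the 8 members was -1.37, against -0.01 over all tested genes, of which 50.7% had a lower value in acc1-5. SPL13A and SPL13B were not tested. By another rule, bounds that do not overlap, the same 3 of 8 were lower and 0 higher, against 1.63% and 5.24% of all tested genes.

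**Figure D1:**
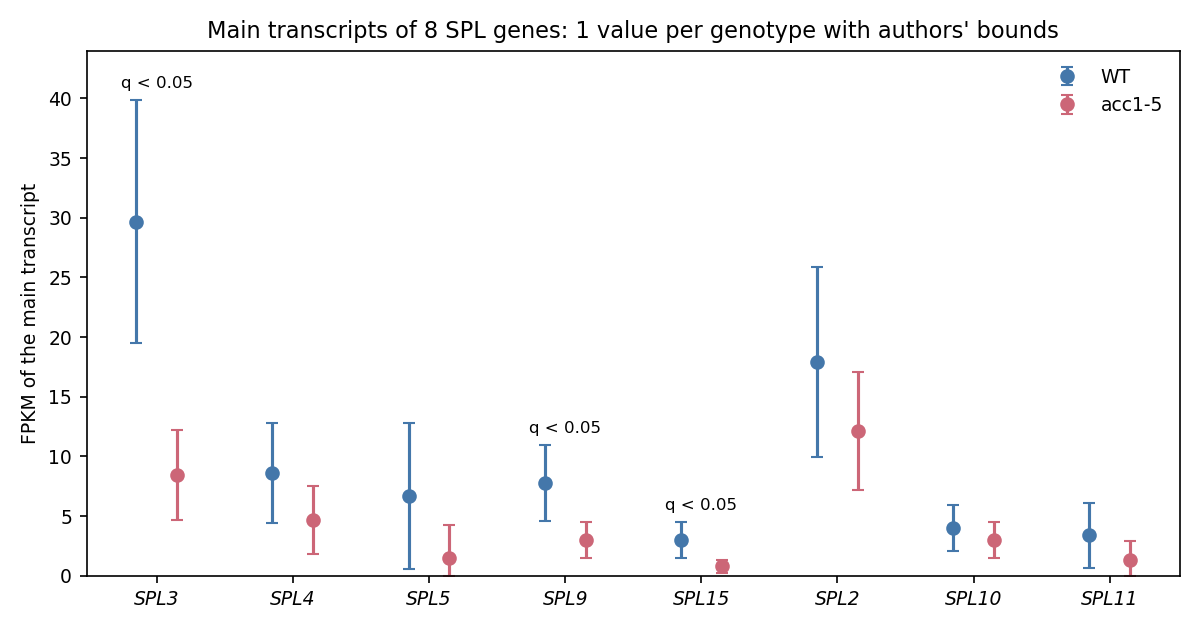
FPKM of the main transcript of the 8 tested SPL genes (y axis) in WT (blue) and acc1-5 (red); points are the authors' value for each genotype and bars their lower and upper bounds. Bounds of both genotypes are separate for SPL3, SPL9 and SPL15, the genes with a q-value under 0.05, and overlap for the other 5.

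SPL3, SPL4 and SPL5 encode small proteins made of little more than the SBP box, which promote flowering by activating floral genes such as AP1, FUL and LFY. SPL3 (AT2G33810, chromosome 2, 14305001 to 14306072 on TAIR10) had the highest level of the 10 genes in WT, at 29.7 FPKM (19.5 to 39.8), and stood at 8.44 (4.64 to 12.2) in acc1-5. The bounds of both genotypes are separate. In the authors' deposited table SPL3 has a log2 fold change of -1.81 at q = 0.000746, a 3.52-fold fall. Only 1.21% of all tested genes had a log2 fold change as low. The SPL3 locus is shared with AT2G33815, a non-coding RNA listed at 1.29 FPKM in WT and 0.0924 in acc1-5 with overlapping bounds. The labels name a TruSeq RNA kit without saying whether strand was kept, so reads of this pair may not be separable.

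SPL5 (AT3G15270, chromosome 3) had the largest fold difference of the tested members and did not pass the test; with a pseudocount of 1 FPKM SPL3 came first, at -1.70 on the log2 scale against -1.63. Its only listed transcript had 6.67 FPKM in WT (0.587 to 12.8) and 1.48 in acc1-5 (0 to 4.28). The authors' deposited table gives this gene -2.17 on the log2 scale at q = 0.179. The WT bounds reach 91.5% of the estimate to each side, and the bounds of both genotypes overlap. The authors' locus for SPL5 (5138686 to 5142644 on TAIR10) also holds the gene AT3G15260, at 21.0 FPKM in WT and 19.2 in acc1-5, at q = 0.903 in the authors' deposited table. Genes with 1 transcript and a mean of 1 to 5 FPKM that were at least 2-fold lower in acc1-5 were called in 74.0% of 227 cases where the locus held 1 gene. Where the locus was shared, as it is for SPL5, 18.4% of 38 were called, and SPL5 is itself among these 38. SPL3, at a mean of 19.1 FPKM, also shares its locus and was called. Whether the shared locus has a part in the SPL5 result was not tested.

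SPL4 (AT1G53160, chromosome 1, 19806419 to 19807608) lay just outside the threshold. Its main transcript had 8.63 FPKM in WT (4.37 to 12.8) and 4.68 in acc1-5 (1.83 to 7.55). The authors' deposited table gives it -0.88 on the log2 scale, p = 0.01145 and q = 0.0649. A second SPL4 transcript, listed with the same start site, had nearly equal estimates of 0.974 and 0.937 FPKM. With both transcripts summed, SPL4 went from 9.60 to 5.62 FPKM, a ratio of 1.71.

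SPL9 and SPL15 are a closely related pair that slow the rate of leaf initiation and promote adult leaf traits; SPL15 also acts with FUL in the shoot meristem at flowering. SPL9 (AT2G42200, chromosome 2, 17587407 to 17589630) fell from 7.76 FPKM (4.56 to 10.9) to 2.96 (1.48 to 4.47), which is -1.39 on the log2 scale with q = 0.000746 in the authors' deposited table. SPL15 (AT3G57920, chromosome 3, 21444321 to 21446035) fell from 2.97 FPKM (1.45 to 4.48) to 0.793 (0.263 to 1.32), which is -1.90 on the log2 scale with the same q in the authors' deposited table. For both genes the acc1-5 bounds end below the start of the WT bounds, narrowly for SPL9. The shared q-value follows from a shared p-value of 5e-05, the smallest the authors' program gives, which 1697 tested transcripts hold, so the order of these genes by p cannot be told. By fold change SPL15 fell by 3.74 times and SPL9 by 2.62 times, but with a pseudocount of 1 FPKM both stood at -1.15 on the log2 scale. That these folds differ from each other was not tested.

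SPL2, SPL10 and SPL11 form a closely related trio with roles in the shape and traits of lateral organs around the reproductive change. None of the 3 was called. The main transcript of SPL2 (AT5G43270, chromosome 5, 17360287 to 17363773) had 17.9 FPKM in WT (9.96 to 25.8) and 12.2 in acc1-5 (7.22 to 17.1), with q = 0.139 in the authors' deposited table. For SPL10 (AT1G27370, chromosome 1, 9505201 to 9508481) the main transcript had 3.98 (2.06 to 5.90) and 3.0 FPKM (1.51 to 4.50), with q = 0.472 in the authors' deposited table. SPL11 (AT1G27360, chromosome 1, 9501077 to 9503869), whose locus ends 1331 bases before that of SPL10, had 3.38 (0.661 to 6.13) and 1.33 FPKM (0 to 2.87) in its main transcript, with q = 0.190 in the authors' deposited table. Bounds overlap in all 3 genes. That they missed the q threshold does not show that the levels were equal.

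Several transcripts share the reads of these genes, and most forms had lower estimates in acc1-5. All 3 listed SPL2 transcripts were lower: beside the main one, AT5G43270.3 went from 8.31 FPKM (2.48 to 14.2) to 4.58 (1.49 to 7.67), and AT5G43270.1 from 1.42 to 0.877. The 3 tested SPL10 transcripts were lower as well; AT1G27370.3 went from 3.59 to 1.81 FPKM and AT1G27370.2 from 2.45 to 1.03, both with overlapping bounds. SPL11 was the exception among the members. Its transcript AT1G27360.2, listed with its own start site, was estimated higher in acc1-5, at 2.47 FPKM (0.722 to 4.26) against 1.49 in WT (0 to 3.66), with q = 0.643 in the authors' deposited table. This form made up 23.3% of the summed SPL11 level in WT and 58.1% in acc1-5, while the main form AT1G27360.1 went from 52.8% to 31.3%. The shares carry no bounds, the bounds of each SPL11 form overlap between genotypes, and a difference in form was not tested. Over all members, 14 of 15 tested transcripts had a lower estimate in acc1-5, against 51.4% of all 25307 tested transcripts. Of the 15, 3 were called lower and 0 higher, against 7.42% and 8.89% of all tested transcripts.

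**Figure D2:**
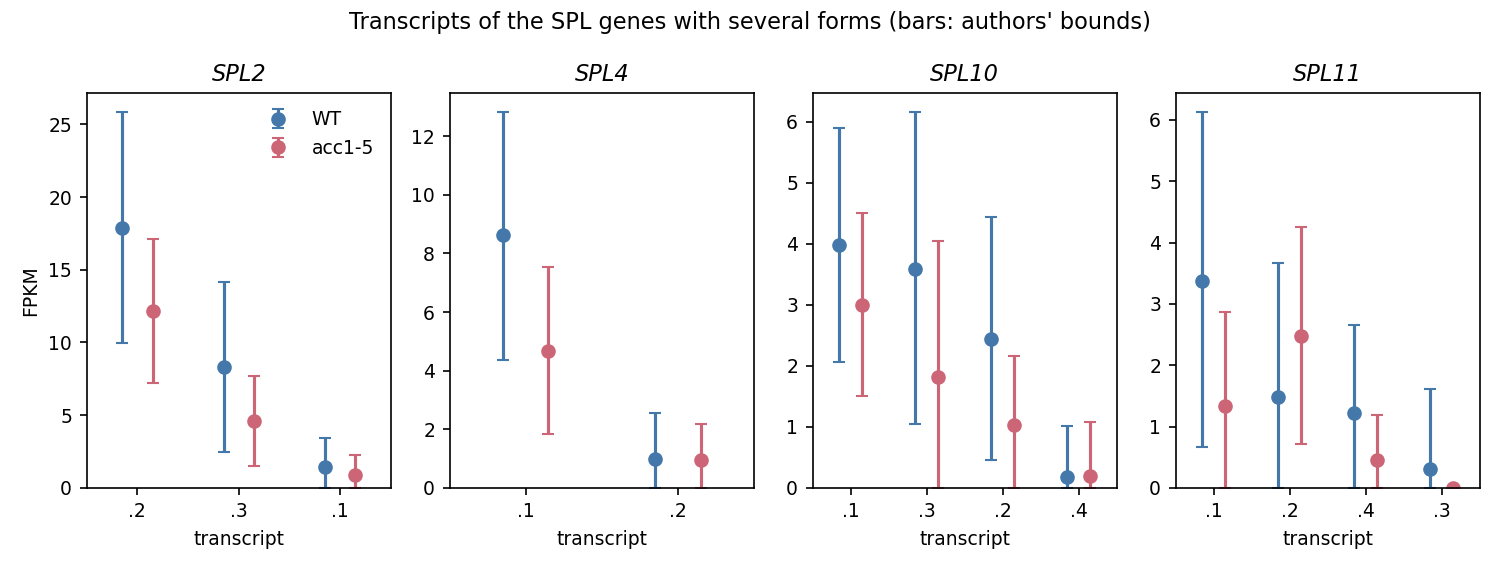
FPKM (y axis, a separate scale for each gene) of each listed transcript of SPL2, SPL4, SPL10 and SPL11 in WT (blue) and acc1-5 (red); points are the authors' values, bars their bounds, and transcripts are named by the suffix of their identifier. AT1G27360.2 of SPL11 is the tested form with a higher estimate in acc1-5, and bounds overlap for every form shown.

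The called members are listed with 1 transcript each, as is SPL5, which was not called, and the other uncalled tested members with several. SPL3, SPL5, SPL9 and SPL15 have 1 transcript each, and 3 of these 4 were called, with ratios of WT to acc1-5 between 2.62 and 4.51. The 4 genes SPL2, SPL4, SPL10 and SPL11 have 2 to 4 transcripts, and 0 of 4 were called. When all their transcripts are summed, their ratios lay between 1.5 and 1.71. Summed levels went from 27.6 to 17.6 FPKM for SPL2, from 10.2 to 6.03 for SPL10 and from 6.40 to 4.26 for SPL11, so by their sums all 4 genes lay below WT. For SPL10 the sum gives a larger difference than the main transcript, -0.76 against -0.41 on the log2 scale, and for SPL11 a smaller one, -0.59 against -1.34. Sums carry no bounds or test. In the whole table, 9.55% of tested genes with 1 transcript were called lower and 12.7% higher; of those with several transcripts, 7.62% were called lower and 5.85% higher. Among genes at least 2-fold lower with a mean of 1 to 5 FPKM, 66.0% of 265 genes with 1 transcript were called, against 32.4% of 68 genes with several. At 5 to 20 FPKM, the range of SPL2 and SPL4, these shares were 94.2% of 173 and 82.3% of 62. SPL11 alone of the 4 was itself at least 2-fold lower in its main transcript, so these shares do not cover SPL2, SPL4 and SPL10. Whether the number of transcripts has a part in the calls was not tested.

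**Figure D3:**
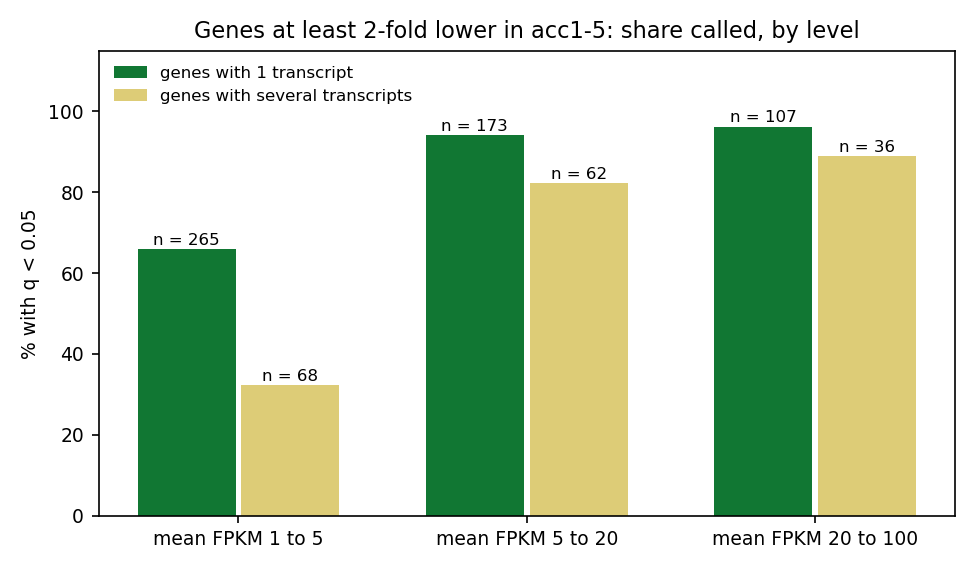
Share of genes with a q-value under 0.05 (y axis, %) among genes whose main transcript was at least 2-fold lower in acc1-5, by mean FPKM over both genotypes (x axis), for genes listed with 1 transcript (green) or several (yellow); n is the number of such genes. The share is lowest, 32.4%, for genes with several transcripts at 1 to 5 FPKM, the range that holds the main transcripts of SPL10 and SPL11. SPL11 is among the genes counted there, and SPL10, less than 2-fold lower, is not.

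SPL13A (AT5G50570) and SPL13B (AT5G50670), copies of each other that act in the timing of adult leaf traits, could not be read from the table. SPL13B is listed at 0 FPKM in both genotypes, and the summed SPL13A transcripts are listed at 0.00978 FPKM in WT and 0.0296 in acc1-5, without a test. The genes around them are listed at equally low values. Of 30 genes in the stretch of chromosome 5 that holds both copies and 20 kb on each side, 29 had at most 0.182 FPKM and none of these was tested. Among these low genes, RefSeq (TAIR10.1) gives 2 symbols to a pair of loci each, SAE1B and HSD1. The remaining gene, HVA22E, had 5.94 FPKM in WT and 10.1 in acc1-5. How reads that match both copies were handled is not given in the sources used here, and the cause of the low values was not tested.

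Ranked by main transcript, the order of levels was SPL3, SPL2, SPL4, SPL9, SPL5, SPL10, SPL11 and SPL15 in WT. In acc1-5 it was SPL2, SPL3, SPL4, SPL10, SPL9, SPL5, SPL11 and SPL15. In both orders every gene's bounds overlap those of the next gene, and differences between genes were not tested, so the order of neighbours is not settled. SPL3 and SPL2 exchange the top places, with summed levels of 29.7 and 27.6 FPKM in WT and 8.44 and 17.6 in acc1-5, and SPL15 is last in both genotypes. SPL10 had about the same main-transcript level as SPL9 in acc1-5, at 3.0 and 2.96 FPKM, and a lower one in WT, at 3.98 and 7.76.

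The other 7 SPL genes, with the uncharacterised AT1G76580 counted among them, had lower estimates too, but the differences were mostly small. Of the 7, 1 was called lower and 0 higher, against 9.04% and 10.9% of all tested genes. Their median log2 fold change was -0.32. SPL8, which acts in anther development and is not a miR156 target, fell from 3.69 FPKM (1.74 to 5.67) to 1.32 (0.388 to 2.23), with q = 0.00398 in the authors' deposited table. SPL6, a miR156 target left out of the list of members, had 6.67 FPKM (4.04 to 9.29) and 4.84 (2.82 to 6.84), with q = 0.230 in the authors' deposited table. Large SPL genes outside miR156 control were not called: SPL1, the most abundant, was at 61.4 FPKM in WT and 47.7 in acc1-5, and the copper regulator SPL7 at 14.3 and 14.1. Whether the members differ from these genes in their change was not tested.

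The microRNA side of the pathway was hardly visible in these libraries. Of 8 MIR156 loci, 7 are listed at 0 FPKM in both genotypes. Those 7 are listed with transcripts of only 80 to 106 bases, and MIR156C with 857 bases. A value of 0 is therefore not read as absence of expression. MIR156C had 3.04 FPKM in WT (1.16 to 4.92) and 1.34 in acc1-5 (0.423 to 2.22). The authors' deposited table gives it -1.18 on the log2 scale at q = 0.0553. Adjusting the authors' p-values over 1 transcript per gene gave MIR156C q = 0.0452, under the threshold, an alternative added after the data were seen. That estimate lies in the same direction as those of the SPL genes. None of 5 MIR172 loci was tested. The 4 listed at 0 FPKM in both genotypes have 89 to 133 bases. MIR172A, listed with 1102 bases, had 0.104 FPKM in WT and 0 in acc1-5. Whether the listed length has a part in these values was not tested. The table holds levels of loci in RNA-seq libraries and not of mature microRNAs, so the amount of miR156 or miR172 was not measured.

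Among the targets of miR172, AP2-like genes that repress flowering and adult traits, 3 of 6 rose and 0 fell. Over all tested genes, 10.9% were called higher and 9.04% lower. The targets had a median log2 fold change of 0.46. SMZ rose from 3.15 FPKM (1.3 to 4.97) to 7.47 (4.08 to 10.8), with q = 0.00528 in the authors' deposited table. The main transcript of TOE2 rose from 6.38 (3.39 to 9.38) to 13.6 (7.94 to 19.3), with q = 0.00246 there. A second TOE2 transcript, AT5G60120.2, had 5.20 FPKM in WT and 7.28 in acc1-5 and was not called, at q = 0.406 there. AP2, which also specifies outer floral organs, rose from 12.8 (8.37 to 17.3) to 19.7 FPKM (13.2 to 26.2), with q = 0.0172 in the authors' deposited table. Bounds overlap for all 3 of these genes although the test called them. TOE1, the most abundant of the targets, had 19.9 FPKM in WT and 24.4 in acc1-5 with q at 0.421 in the authors' deposited table, while TOE3 and SNZ had lower estimates in acc1-5 without a call.

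Flowering genes that act with SPL factors or downstream of them fell in 6 of the 10 cases that were tested, out of 12 listed. None of the 10 was called higher. Over all tested genes, 9.04% were called lower and 10.9% higher. All 10 flowering genes had a lower estimate, with a median log2 fold change of -1.62. CAL and TSF were not tested; CAL is listed at 0.481 FPKM in WT and 0.0873 in acc1-5, and TSF, the close relative of FT, at 0.0837 and 0.192. SOC1, a MADS-box integrator of flowering signals that also activates SPL genes, fell from 50.5 FPKM (32.2 to 68.6) to 16.5 (10.0 to 22.7), with q = 0.000746 in the authors' deposited table. FUL, a direct target of SPL factors, fell from 9.51 (5.57 to 13.4) to 3.18 FPKM (1.3 to 5.01), with the same q in the authors' deposited table. Bounds of both genotypes are separate for SOC1 and for FUL. FD, the bZIP partner of FT with which SPL proteins can form a complex, fell from 9.90 FPKM (5.77 to 14) to 4.75 (2.50 to 6.98; q = 0.00246), and AGL24 from 39.0 to 25.7 (q = 0.0224), in the authors' deposited table. FT, the signal from leaves, and AP1, a direct target of SPL3, were the other called genes, at -1.73 and -3.48 on the log2 scale in the authors' deposited table. LFY was at 0.712 FPKM in WT (0.215 to 1.18) and 0.230 in acc1-5 (0 to 0.431), with q = 0.110 in the authors' deposited table. SVP, a floral repressor and the most abundant gene of the list, had 76.7 and 62.1 FPKM, at q = 0.317 in the authors' deposited table. FLC, another floral repressor, had 1.83 FPKM in WT (0.563 to 3.13) and 0.335 in acc1-5 (0 to 0.631), with q = 0.526 there. The 10 genes with lower estimates thus include repressors of flowering as well as promoters.

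**Figure D4:**
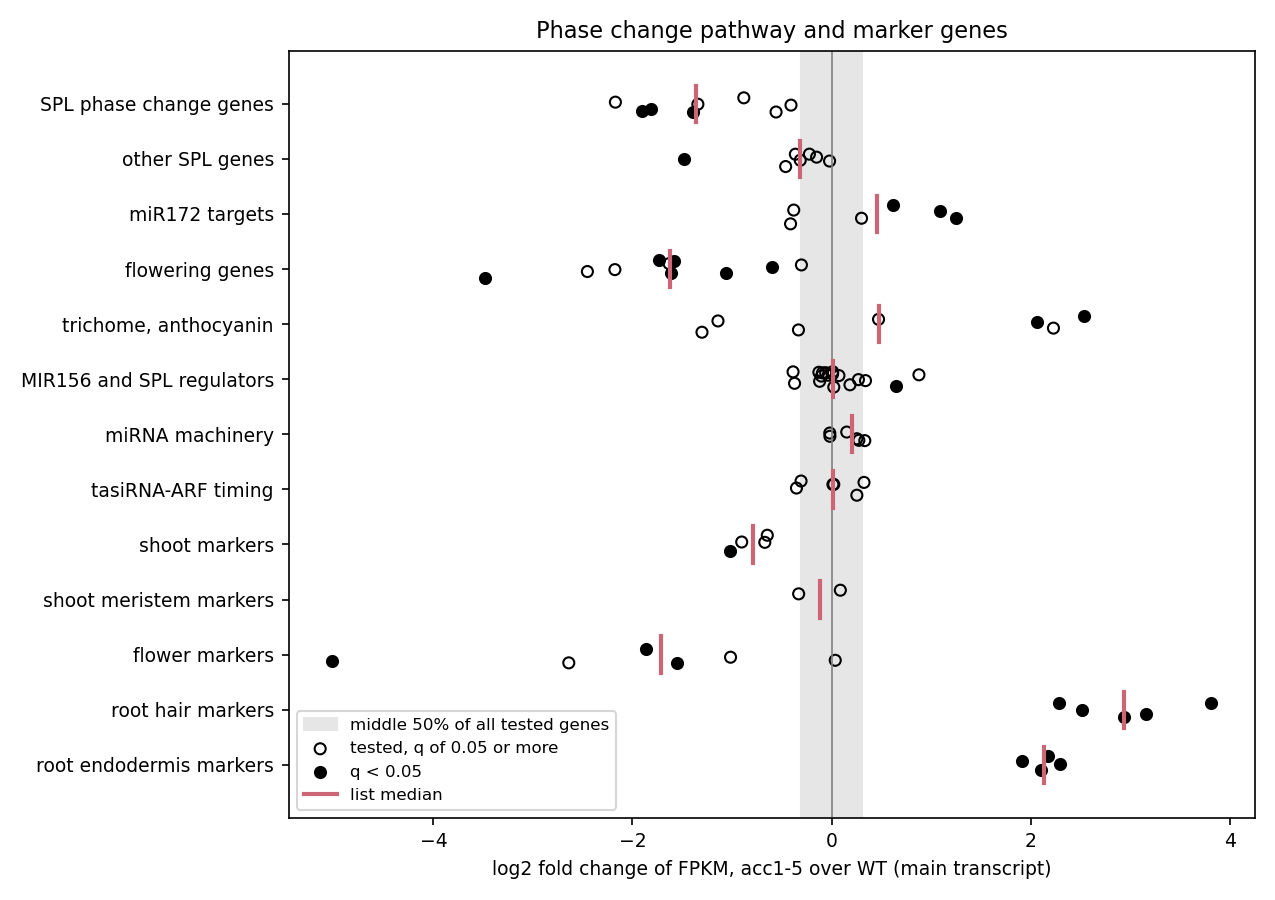
Log2 fold change of FPKM, acc1-5 over WT (x axis), of the main transcript of each tested gene in the SPL set, in other lists of the pathway and in marker lists (y axis). Filled points have a q-value under 0.05, open points do not, red bars are list medians, and the grey band spans the middle 50% of all tested genes (-0.31 to 0.31). The SPL set has a median of -1.37 and the flowering genes -1.62, while the miRNA machinery, at 0.20, and the regulators of MIR156 and SPL genes, at 0.01, lie within the band.

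Genes of trichome patterning and anthocyanin synthesis that SPL9 acts on had estimates on both sides of WT. Of 7 tested, 2 rose and 0 fell, against 10.9% and 9.04% of all tested genes, with a median log2 fold change of 0.47. TRY and TCL1, repressors of trichome formation that SPL9 activates, had 2.30 FPKM (0.703 to 3.79) and 2.79 (0.739 to 4.84) in WT. Both had lower estimates in acc1-5, at 0.935 (0.211 to 1.62) and 1.27 (0.246 to 2.22), without a call. DFR, an anthocyanin gene that SPL9 represses, rose by 2.07 on the log2 scale, and PAP1, the activator that SPL9 interferes with, by 2.54, in the authors' deposited table. ANS, the next enzyme of that pathway, had 3.66 FPKM in WT (0 to 7.30) and 17.1 in acc1-5 (11.0 to 23.3), and its q of 0.177 in the authors' deposited table did not pass the threshold although these bounds do not overlap.

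Most upstream regulators were not called. Of 17 regulators of MIR156 and SPL genes, 1 rose, 0 fell and 16 were not called. Over all tested genes, 10.9% were called higher and 9.04% lower. The regulators had a median log2 fold change of 0.01. The one that rose was HXK1, a hexokinase and glucose sensor through which sugar lowers MIR156, from 33.8 FPKM (21.7 to 45.9) to 52.9 (34.6 to 71.3), with q = 0.0197 in the authors' deposited table; its locus is shared with another gene. AGL15, a MADS-box gene that promotes MIR156 expression, had 2.96 FPKM in WT and 5.44 in acc1-5, at q = 0.0706 in the authors' deposited table. RGA, a DELLA repressor that binds SPL proteins, was the most abundant, at 58.7 and 45.3 FPKM, at q = 0.179 in the authors' deposited table. VAL1 and VAL2, repressors of MIR156 genes, stood at 0.01 and 0.02 on the log2 scale in the authors' deposited table. GCN5, which encodes a histone acetyltransferase, stood at 0.27 there, without a call. None of 6 tested miRNA machinery genes was called; SE had 34.5 and 34 FPKM. AGO1, whose product carries miR156, has 5 transcripts, and its main one, at 28.2 and 29.9 FPKM, carries the authors' low-data mark and no test. Its transcripts AT1G48410.1 and AT1G48410.2 were tested without a call, with q at 0.959 and 0.747 in the authors' deposited table. A parallel timing pathway, in which small RNAs from TAS3 restrain ETT and ARF4, had 0 of 6 genes called and a median of 0.02, with TAS3 at 35.4 and 28.6 FPKM.

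Tissue markers differed between the genotypes as well. In whole seedlings, fewer cells of a type and less RNA per cell cannot be told apart. All 4 shoot markers had lower estimates in acc1-5, 1 of them called, with log2 fold changes between -1.02 and -0.65 and a summed level of 18957 FPKM in WT and 10980 in acc1-5. The one called was LHCB1.1, a light-harvesting protein gene, from 1004 to 495 FPKM. RBCS1A, for the small subunit of Rubisco, was the most abundant, at 9403 FPKM in WT (0.165 to 28301) and 5028 in acc1-5 (245 to 9816.5). LHCB1.3 followed, at 7928 FPKM (638 to 15191) and 5066 (649 to 9474). Their q-values in the authors' deposited table were 0.628 and 0.720. RBCS1A and LHCB1.3 make up most of the summed shoot level, so that sum rests on values with wide, overlapping bounds. All 9 root hair and root endodermis markers rose, with medians of 2.93 and 2.14; their summed levels went from 10.5 to 93.6 FPKM and from 8.74 to 38.3. The root hair genes EXPA7, EXPA18, PRP3, COBL9 and RHD6 rose by between 2.28 (RHD6) and 3.81 (EXPA7) on the log2 scale in the authors' deposited table. The endodermis genes MYB36, CASP1, ESB1 and CYP86A1 rose by between 1.91 (CASP1) and 2.29 (CYP86A1) there, by main transcript. A second ESB1 transcript, AT2G28670.2, had 2.32 FPKM in WT and 3.0 in acc1-5 and was not called, at q = 0.768 there. CASP1 and ESB1 each share their locus with another gene. The main shoot meristem markers stood closer, STM at 11.1 and 11.8 FPKM and KNAT1 at 11.5 and 9.11, neither called, and WUS and CLV3 were near 0. Of 6 flower markers, 3 fell and 0 rose, against 9.04% and 10.9% of all tested genes. AP3, PI and SEP2 fell. SEP1 had 4.14 FPKM in WT and 0.664 in acc1-5, and AG 1.31 and 0.651. Neither was called, at q = 0.0633 for SEP1 and 0.119 for AG in the authors' deposited table. SEP3, also uncalled, was at 9.89 and 10.1 FPKM. The 8 tested SPL genes stood between -2.17 and -0.41 on the log2 scale in the same libraries, in the authors' deposited table. The called ones among them fell by 1.39 to 1.90. The part that tissue makeup has in the SPL differences was not tested.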

How the data were processed

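RNA-seq values of 3 WT and 3 acc1-5 libraries were used. The submitters' processing notes name TopHat 1.4.0, Bowtie, Cufflinks 2.1.1, Cuffdiff 2.1.1 and the TAIR10 build. The authors deposited FPKM with lower and upper bounds, 1 value per genotype; neither the confidence level of the bounds nor how libraries were combined is stated. Per the file headers, the deposited comparison holds a log2 fold change (acc1-5 over WT), a p-value and a q-value; its test statistic, a deposited score, was not used. The q-values equal Benjamini-Hochberg values over the 25307 tested transcripts within 5.3e-07. The authors' columns named ACC1 were read as acc1-5. Depth per library is unknown; for tested transcripts at 1 FPKM or more in WT, bounds lay a median of 41.6% of the value to either side. Locus starts were converted to count from 1.

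The planned limma fit needs values of single libraries, so the authors' q-values under 0.05 served as the test, as the design allowed. The labels do not say whether libraries came from separately grown seedlings, so p-values may measure technical spread. Members and lists were chosen with earlier results of these data known. All members are named; of other lists, called genes and the most abundant uncalled gene are named, and further genes were added after their values were seen. All 109 gene identifiers matched RefSeq, which gave symbols. The self-written adjustment was tested on simulated p-values. No sequence table was used here. Python 3.11.15, pandas 2.3.3, numpy 2.4.6, scipy 1.17.1 and matplotlib 3.10.9 were used.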

Additional observations from a re-analysis of the deposited data

How the results depend on the processing

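The count of 3 members called lower held with q under 0.01, with a mean FPKM of at least 1, with non-overlapping bounds in place of q (1.63% of all tested genes were lower by that rule), and with p adjusted over 1 transcript per gene, an alternative added after the data were seen. With q under 0.1 it was 4, SPL4 being the addition, and 0 members were higher under any of these settings. SPL3, SPL9 and SPL15 hold the smallest p-value the authors' program gives, and their mean FPKM lies between 1.88 and 19.1. The stricter q and the FPKM filter therefore could not have removed them. The members' median log2 fold change of -1.37 became -1.03 with a pseudocount of 1 and -1.08 with transcripts summed; the main transcript of SPL11 moved from -1.34 to -0.59 when summed, and no member changed sign. Transcripts called lower among all tested numbered 1174 with q under 0.01, against 1879. By non-overlapping bounds, 340 transcripts were lower and 1082 higher, against 1879 and 2251, and in the pathway lists 4 genes were lower and 3 higher, against 7 and 6. Adjusting over 1 transcript per gene gave 8 lower and 6 higher there, MIR156C being the addition. With a pseudocount of 1, SPL15 moved from -1.90 to -1.15. The cause of these shifts was not tested. No paired analysis was possible because the tables hold 1 value per genotype, and leaving out single libraries was not possible for the same reason.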

Other observations

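Genes next to the SPL loci were mostly not called. Within 3 kb of the 10 SPL loci lie 29 other genes, of which 17 were tested, 2 were called lower and 1 higher. Over all tested genes, 9.04% were called lower and 10.9% higher. The median log2 fold change of the tested neighbours was 0.03. The genes called lower were AT2G33800 beside SPL3, from 468 to 293 FPKM (q = 0.0132), and AT3G57930 beside SPL15, from 50.8 to 29.9 (q = 0.00138), in the authors' deposited table. AT3G15240, near SPL5, was called higher, from 1.64 to 4.47 FPKM (q = 0.00349 in the authors' deposited table). Between SPL15 and its next neighbour AT3G57910 lie only a few bases, and that gene was at 7.96 FPKM in WT (4.36 to 11.4) and 8.18 in acc1-5 (4.51 to 11.6). These neighbours were chosen by distance after the values of the SPL genes were seen.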
